A study of Homo sapiens with 6 samples.

Results

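The clustered protocadherin genes were the 53 protein-coding genes of GENCODE release 44 on human chromosome 5 whose symbols begin with PCDHA, PCDHB or PCDHG, out of 20033 protein-coding genes on chromosomes 1 to 22, X and Y. They fall into 3 clusters. The alpha cluster held 15 genes, of which 13 were alternate genes (PCDHA1 to PCDHA13) and the other two were PCDHAC1 and PCDHAC2. The beta cluster held 16 genes. The gamma cluster held 22 genes, of which 12 were of the A family, 7 of the B family and 3 were PCDHGC3, PCDHGC4 and PCDHGC5. PCDHAC1, PCDHAC2 and the PCDHGC genes are together called C-type.

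Accessible chromatin was mapped by ATAC-seq, in which the Tn5 transposase inserts sequencing adapters into DNA that nucleosomes leave exposed, in MCF10A cells, an established line of non-transformed human mammary epithelial cells. All cells were first kept for 30 min in a phosphate-free salt buffer and then for 30 min with 50 µM TPA, a chelator that removes labile Zn2+, with 30 µM ZnCl2, or with no addition (Control). There were 2 libraries per condition, 6 in all, and both treatments were compared with the same pair of Control libraries, so that their 2 comparisons are not independent. The labels do not say whether replicates came from separate cultures. The paper calls them biological in its methods and technical in its results. The p-values may therefore measure technical spread only.

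Clustered protocadherins are cell surface adhesion proteins of the cadherin superfamily, best known from neurons, where different combinations of them give single cells an identity that neighbouring cells recognise. Each variable exon of the alpha and gamma clusters has its own promoter and is spliced to constant exons shared by the whole cluster, whereas the beta genes are single-exon genes. Most of these promoters carry a conserved element with the core CGCT, and the zinc finger protein CTCF and the cohesin complex bring a chosen promoter to distant enhancers. C-type genes follow a different mode of choice from the alternate genes and are expressed more uniformly among neurons.

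The promoters on which the results turn are given first, as the 250 bases before the transcript start in the RefSeq table of build GRCh38.p14, with every CGCT of the gene's strand in capitals. The first 3 belong to the C-type genes whose starts were open in every library, the 4th to a C-type gene of like base composition that was open in none, and the last to the single alternate gene that was open in any library.
PCDHAC1, chr5:140926049-140926298, plus strand: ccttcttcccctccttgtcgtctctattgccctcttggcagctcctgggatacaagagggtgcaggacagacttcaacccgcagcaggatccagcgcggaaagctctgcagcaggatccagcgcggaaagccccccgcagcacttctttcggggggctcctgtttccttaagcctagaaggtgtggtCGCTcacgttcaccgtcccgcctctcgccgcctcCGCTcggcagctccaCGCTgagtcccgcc
PCDHAC2, chr5:140966226-140966475, plus strand: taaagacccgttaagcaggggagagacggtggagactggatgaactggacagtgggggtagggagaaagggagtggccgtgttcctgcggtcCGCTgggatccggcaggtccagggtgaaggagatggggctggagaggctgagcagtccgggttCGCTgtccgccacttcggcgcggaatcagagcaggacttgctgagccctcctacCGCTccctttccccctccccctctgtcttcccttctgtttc
PCDHGC3, chr5:141475716-141475965, plus strand: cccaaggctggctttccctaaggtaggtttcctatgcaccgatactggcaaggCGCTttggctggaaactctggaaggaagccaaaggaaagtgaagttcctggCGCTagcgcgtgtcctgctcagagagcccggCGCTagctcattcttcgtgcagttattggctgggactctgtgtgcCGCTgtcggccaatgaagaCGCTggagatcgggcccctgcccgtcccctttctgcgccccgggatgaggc
PCDHGC4, chr5:141484780-141485029, plus strand: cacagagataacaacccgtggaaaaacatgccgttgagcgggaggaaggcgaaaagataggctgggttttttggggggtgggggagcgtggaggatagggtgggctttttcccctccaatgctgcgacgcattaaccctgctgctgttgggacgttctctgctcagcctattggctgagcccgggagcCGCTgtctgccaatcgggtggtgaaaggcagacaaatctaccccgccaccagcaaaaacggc
PCDHA12, chr5:140875058-140875307, plus strand: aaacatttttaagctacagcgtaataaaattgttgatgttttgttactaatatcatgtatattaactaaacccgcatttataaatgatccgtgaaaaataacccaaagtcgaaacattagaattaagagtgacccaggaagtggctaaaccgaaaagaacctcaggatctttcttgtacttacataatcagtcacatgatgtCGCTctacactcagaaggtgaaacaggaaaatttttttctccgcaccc

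Of the 53 members, 47 had an entry in the RefSeq table, and for 46 it began at the start of the canonical GENCODE transcript. Base composition was computed for all 53 on the hg38 genome in a window of 250 bases before to 50 bases after the canonical start. The 48 members other than C-type had a GC content of 32.3% to 50% with a median of 38.5%, against a median of 63.7% over all 20033 coding promoters. The GC content was 66% for PCDHAC1, 63% for PCDHAC2, 59% for PCDHGC3, 60.7% for PCDHGC4 and 55.7% for PCDHGC5, so that no C-type promoter overlapped the others. The number of CpG dinucleotides in the window was 27 for PCDHAC1, 15 for PCDHAC2, 18 for PCDHGC3 and 23 for PCDHGC4, but 5 for PCDHGC5. The observed to expected CpG ratio, which corrects for base composition, had a median of 0.593 over the 53 members and 0.775 over coding promoters, and ranged from 0.219 in PCDHGC5 to 1.07 in PCDHB4.

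The 4 letters CGCT were present on at least 1 strand in 51 of 53 member windows (96.2%), against 82.4% of all coding promoters, and the 2 windows without them were those of PCDHA9 and PCDHGC5. The canonical start of PCDHA9 lay over 100 bp from the 5′ end of its gene record, as did those of PCDHA11 and PCDHGA8. A longer word that contains these letters, made of TG, any base and CGCTG, was chosen after the member sequences had been seen. On the gene's strand it was found in 24 members (45.3%), among them 7 of 13 alpha alternates, 13 of 16 beta genes, 3 of 12 gamma A genes, 0 of 7 gamma B genes and 1 of 5 C-type genes, and in 3.64% of all coding promoters. On either strand it was found in 25 members (47.2%) and in 6.46% of coding promoters. It began at a median of 54 bases before the canonical start, with a range of 0 to 84 bases. Stretches of 32 bases around it are shown for 3 genes of each cluster, to set the families side by side, again with CGCT in capitals.
PCDHA1: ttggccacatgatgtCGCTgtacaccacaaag
PCDHA8: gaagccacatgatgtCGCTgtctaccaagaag
PCDHA10: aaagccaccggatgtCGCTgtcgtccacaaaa
PCDHB2: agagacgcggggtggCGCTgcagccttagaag
PCDHB13: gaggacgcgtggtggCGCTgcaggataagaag
PCDHB15: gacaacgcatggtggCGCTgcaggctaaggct
PCDHGA3: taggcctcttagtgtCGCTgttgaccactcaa
PCDHGA4: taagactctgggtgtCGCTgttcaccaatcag
PCDHGA5: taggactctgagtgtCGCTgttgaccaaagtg
The free base of the word was T in all 7 alpha and all 3 gamma A genes with a match, G in all 13 beta genes and C in PCDHGC3. A letter match describes the sequence and is not evidence that a protein was bound there. The core of the genome-wide CTCF consensus, searched as CCA, 2 free bases, AG, 2 free bases and GGC, was found on either strand in 1 member window (PCDHB9, 1.89%) and in 2.77% of coding promoters.

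The measurement in each library was a list of open regions called by HMMRATAC, with a whole-number score. The lists held 25031 and 44641 regions for Control, 35902 and 41376 for TPA, and 38069 and 18887 for ZnCl2, in the order of replicates 1 and 2. As these lists carry no read counts, the sequencing depth behind a region is unknown, and a start outside every region is a start that was not called, not one shown to be closed. A region's score was used only as its percentile, the percentage of regions of the same list that scored lower. A start is the 5′ end of the gene record, counted as open where a region covers that base. Starts of 9 of 11 genes for CTCF, cohesin and silencing factors, CTCF itself included, were open in all 6 libraries. Of the 11 basal epithelial markers 3 were open in all 6 and 7 in some, and of the 5 luminal markers 2 were open in all 6 (KRT8 and KRT18), 1 in some and 2 in none, while 5 of 6 neuronal, 4 of 5 fibroblast and 3 of 4 leukocyte markers were open in none. The start of TP63, a defining gene of basal epithelium, was in no list, whereas those of KRT5 and KRT14 were covered in 5 and 4 libraries. As only the 5′ end of the gene record was read, an open start further inside TP63 would not be counted. No ZnCl2 replicate 2 region, in the shortest list, covered the start of either keratin gene.

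Hardly any member was open. The number of member starts inside an open region was 3 and 4 in the Control libraries, 3 and 4 in the TPA libraries and 3 in each ZnCl2 library, which is 5.66% or 7.55% of the 53. Over all coding genes the share was 46.5% and 57.5% in Control, 50.4% and 52.6% in TPA, and 55.7% and 43.6% in ZnCl2. The same 3 starts, those of PCDHAC1, PCDHAC2 and PCDHGC3, were open in all 6 libraries (5.66% of members, against 39.3% of coding genes). PCDHA12 was open in 2 libraries. The remaining 49 members (92.5%) were open in none, against 39.8% of coding genes. With each list cut to its 18887 highest-scoring regions, so that all lists were equally long, 3 and 3 member starts were open in Control, 2 and 2 in TPA, and 3 and 3 in ZnCl2, while coding genes stood at 41.7% and 45%, 38.3% and 39.1%, and 45.1% and 43.6%.

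**Figure D1:**
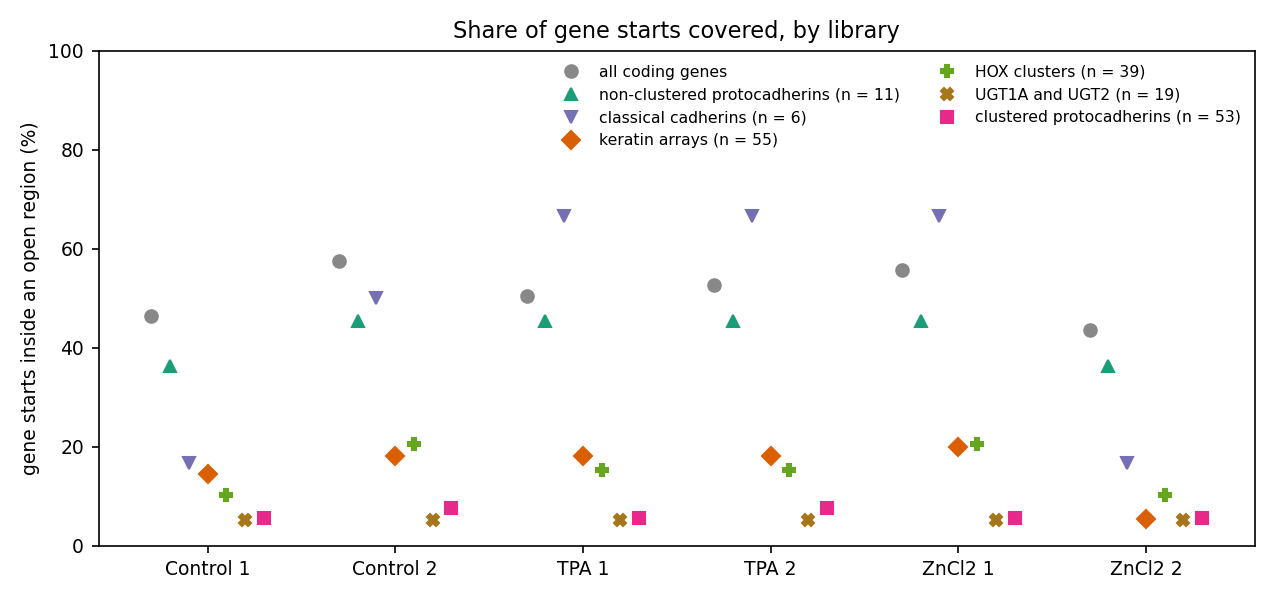
Share of gene starts inside an open region (y axis, percent) in each of the 6 libraries (x axis), for the 53 clustered protocadherins, all 20033 coding genes and 5 comparison lists. Each symbol is 1 list in 1 library, and the clustered protocadherins sit at 5.66% or 7.55% in every library, below all coding genes.

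The open starts were those of C-type genes. Of the 5 C-type members 3 were open in all libraries, and of the other 48 none was open in all, 1 was open in 2 libraries and 47 were open in none. None of the 16 beta genes and none of the 19 gamma A and B genes was open in any library. PCDHGC4 and PCDHGC5 lay 7.39 and 11.5 kb from the nearest open region of any library. Among the 49 uncovered members this distance ran from 5.8 kb for PCDHA13, next to PCDHA12, to 137 kb for PCDHB16 in the middle of the beta cluster, with a median of 58.2 kb. Of the first and last genes of the clusters, only PCDHAC2, the last alpha gene, was open in any library. PCDHGC5, the last gamma gene, was open in none although it is of C-type. PCDHA1 lay 59.1 kb from the nearest region, PCDHB1 9.08 kb, PCDHB15 74 kb and PCDHGA1 8.19 kb.

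Base composition was set beside openness as a description. Of the 3315 coding promoters with a GC content of up to 50%, the highest value among members other than C-type, 7.99% were open in all libraries and 79.4% in none. The 48 members in that range were open in all libraries in 0 cases and in none in 47. Of the 6737 coding promoters with a GC content of 60% to 70%, 49.7% were open in all libraries, as were PCDHAC1 and PCDHAC2, whereas PCDHGC4 in the same range was open in none. Repeated sequence was small at these starts. Of all 75-base pieces within 250 bp of a start, 75 bases being the read length, a mean of 1.98% per member occurred elsewhere in the genome, against 3.56% over all coding starts. At least 1 repeated piece was found in 6 members (11.3%), against 8.2% of coding starts. These were PCDHB8 and PCDHB13 with 23.4% of pieces each, PCDHGB6 with 21.3%, PCDHGB7 with 18.7%, PCDHGB5 with 9.84% and PCDHGB4 with 8.43%. Their part in the result was not tested, and the other 43 uncovered members had no repeated piece.

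**Figure D2:**
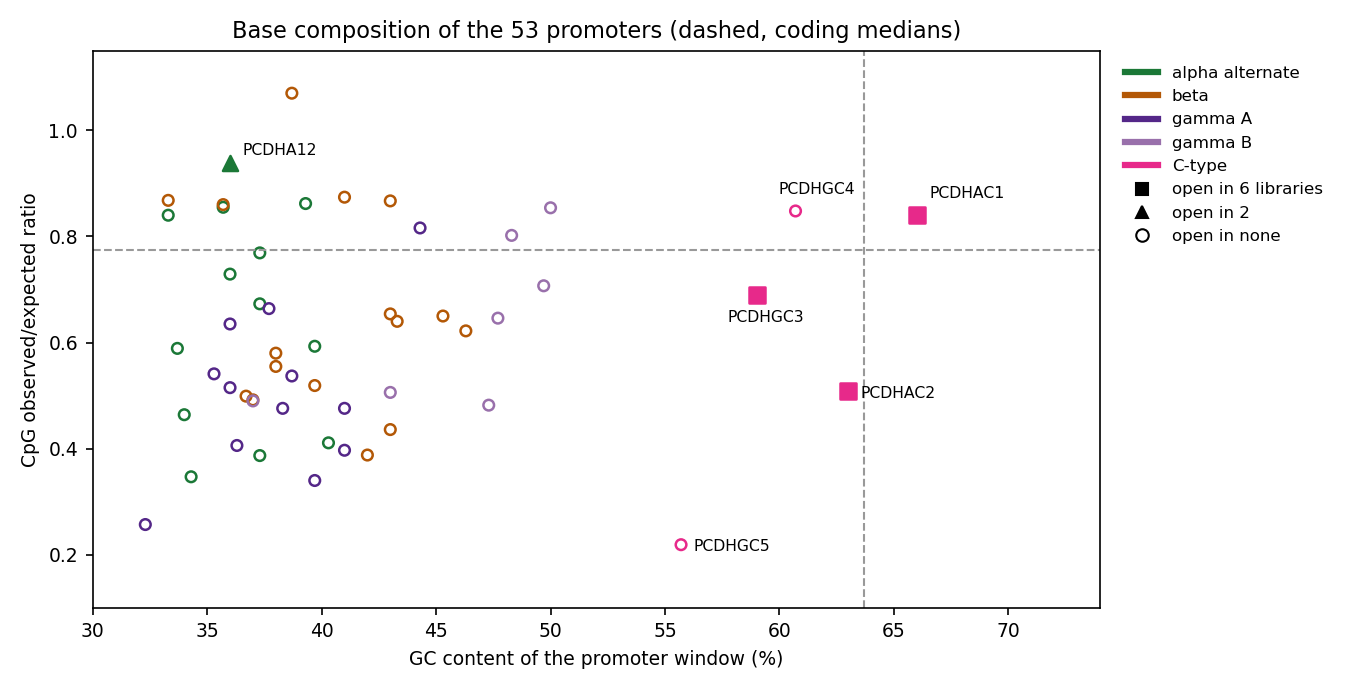
GC content (x axis, percent) against the observed to expected CpG ratio (y axis) of the 53 promoter windows, coloured by gene class. Filled squares are open in 6 libraries, the filled triangle in 2 and open circles in none, and dashed lines mark the medians of all coding promoters (63.7% and 0.775). The filled squares lie at a GC content of 59% to 66%, where PCDHGC4 is the single open circle.

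Other gene arrays were compared by the same count. Of 55 keratin genes 43 were open in no library and 3 in all, of 39 HOX genes 29 in none and 3 in all, and of 19 UGT1A and UGT2 genes, of which the UGT1A genes also share constant exons, 18 in none and 1 in all. The share open in none was thus 78.2%, 74.4% and 94.7%, and that of the clustered protocadherins, 92.5%, lay between those of the keratin and UGT lists. The non-clustered protocadherins, which lie outside these 3 clusters, were open in all libraries in 4 of 11 cases (PCDH1, PCDH7, PCDH9 and PCDH12) and in none in 6. Of the 6 classical cadherins, the calcium-dependent adhesion molecules of the same superfamily, 0 were open in all libraries and 2 in none.

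The region at PCDHAC1, the first C-type gene of the alpha cluster, stood at a percentile of 95.4 and 97 in Control, 70.3 and 87.9 in TPA, and 97.4 and 89.8 in ZnCl2. Both TPA values lay below both Control and both ZnCl2 values, and that of TPA replicate 1 was also below the median of 77.7 for coding starts open in all libraries. The mean was 79.1 ± 12.5 (SD, n = 2) in TPA and 96.2 ± 1.16 in Control, a difference of -17.1 percentile points (exact two-sided permutation test, p = 0.333, the smallest value that 2 libraries against 2 can give). For ZnCl2 the mean was 93.6 ± 5.37 and the difference from Control -2.59 points (exact permutation p = 1). The region spanned 1430 and 2360 bp in Control, 1680 and 1400 bp in TPA, and 2200 and 1680 bp in ZnCl2, and these widths overlapped between all conditions.

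PCDHAC2, the last variable exon of the alpha cluster, had the lowest percentiles of the 3 members open throughout. They were 47.9 and 80.1 in Control, 18.6 and 47 in TPA, and 87.9 and 63.6 in ZnCl2. Both TPA values again lay below the values of the other conditions, although the higher TPA value was only just below the lower Control value. The mean was 32.8 ± 20.1 in TPA, 64 ± 22.8 in Control and 75.7 ± 17.2 in ZnCl2 (SD, n = 2). TPA differed from Control by -31.1 points and from ZnCl2 by -42.9 points (exact permutation p = 0.333 each), and ZnCl2 from Control by 11.7 points (exact permutation p = 0.667). The width of the region was 1260 and 1950 bp in Control, 1020 and 1400 bp in TPA, and 2540 and 1820 bp in ZnCl2. TPA and ZnCl2 widths did not overlap (exact permutation p = 0.333), but the same held, with TPA narrower, for 54.6% of the 7880 coding starts open in all libraries. The median width over whole lists was likewise lower in TPA, at 1160 and 1070 bp, than in Control, at 1220 and 1760 bp, and ZnCl2, at 1450 and 2070 bp.

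PCDHGC3, the first C-type gene of the gamma cluster, differed from the pair of alpha genes. Its percentile was 88.2 and 96.1 in Control, 95.6 and 96.6 in TPA, and 95.6 and 90.2 in ZnCl2. The conditions overlapped, with means of 92.2 ± 5.59 in Control, 96.1 ± 0.672 in TPA and 92.9 ± 3.85 in ZnCl2. The difference from Control was 3.9 points for TPA (exact permutation p = 0.667) and 0.71 points for ZnCl2 (exact permutation p = 1). The region was narrower in TPA, at 1730 and 1740 bp, than in Control, at 1930 and 2390 bp, or ZnCl2, at 1830 and 2200 bp (exact permutation p = 0.333 each), as were 16.5% of coding starts against Control and 54.6% against ZnCl2. Coding starts wider in TPA made up 1.83% against Control and 2.68% against ZnCl2. No member width moved without overlap in ZnCl2 against Control, where 10.6% of coding starts were wider and 2.65% narrower.

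Non-overlap of this kind was common. Over the 7880 coding starts open in all 6 libraries, the percentile was lower in both TPA than in both Control libraries at 23.4% and higher at 10.5%. Against ZnCl2, TPA was lower at 17.7% and higher at 21.9%. For ZnCl2 against Control these shares were 13.7% and 2.73%, and no member was among them. The rank of each region from the top of its list was also compared. Percentile and rank both depend on the length of the list, and no rank in ZnCl2 replicate 2 can pass 18887, whereas PCDHAC2 ranked 28278 and 21219 in TPA. By rank PCDHAC1 and PCDHAC2 were lower in TPA than in Control, as were 41.5% of coding starts, and lower than in ZnCl2, as were 46.3%. PCDHGC3 ranked higher in TPA than in Control, as did 11.6% of coding starts, and higher than in ZnCl2, as did 15.2%. PCDHAC2 ranked higher in ZnCl2 than in Control, as did 23.8%. The median percentile of the 3 members was 88.2 and 96.1 in Control, 70.3 and 87.9 in TPA, and 95.6 and 89.8 in ZnCl2. That of the 7880 coding starts was 74.5 and 86.8, 77.7 and 81.7, and 84.3 and 68. The TPA mean of the member median was 13.1 points lower than that of Control (79.1 ± 12.5 against 92.2 ± 5.59, exact permutation p = 0.333), and the ZnCl2 mean differed by 0.533 points (exact permutation p = 1). With equally long lists, PCDHAC2 drops out of both TPA libraries. Over the remaining pair, still with percentiles of the full lists, the TPA difference was -6.59 points (exact permutation p = 0.667). Percentiles within the shortened lists were not computed, so this value reflects the loss of PCDHAC2 and not the list length. With all 3 members and full lists, the difference was -4.25 points without TPA replicate 1 and -21.9 points without TPA replicate 2.

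**Figure D3:**
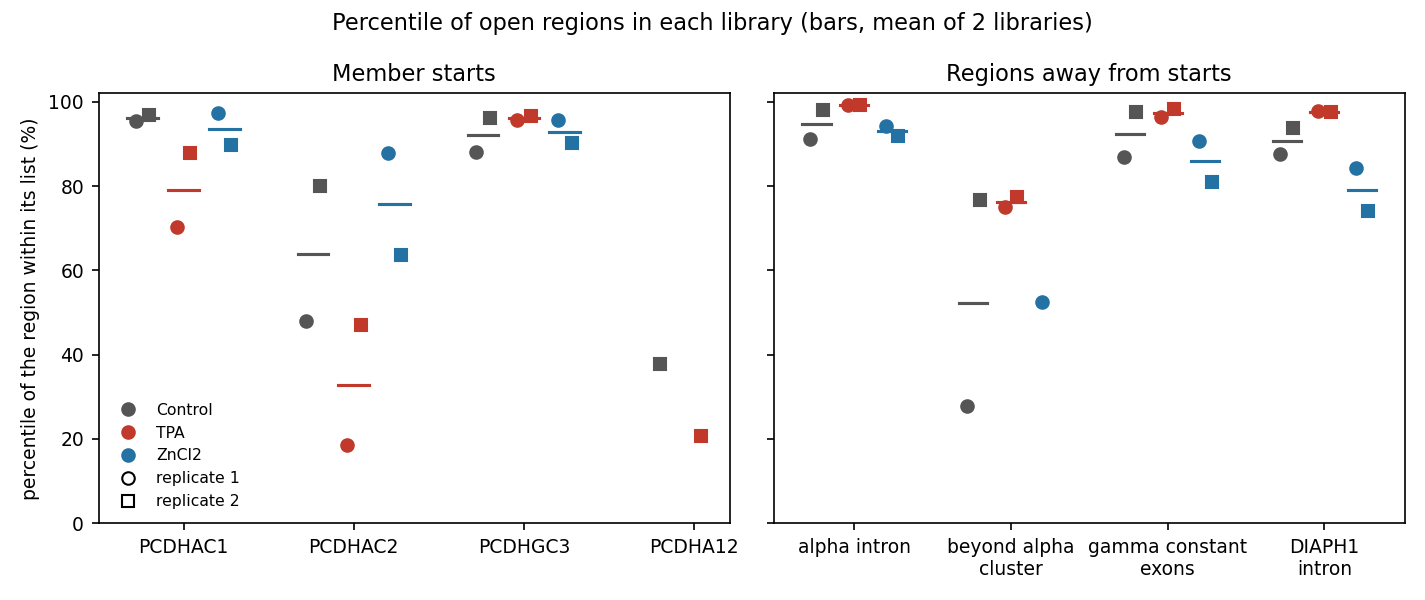
Percentile of open regions within their list (y axis) at 4 member starts (left) and 4 regions away from starts (right), with circles for replicate 1, squares for replicate 2 and bars for the mean where both libraries hold the region. Both TPA points lie below both Control points at PCDHAC1 and PCDHAC2, and above them in the alpha intron and the DIAPH1 intron. Where a library held 2 calls in a merged region, the higher percentile is plotted.

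PCDHA12 was the single alternate gene with an open start. The region was called in Control replicate 2 (percentile 37.9, 1370 bp) and in TPA replicate 2 (percentile 20.7, 1010 bp), which had the longest list of their conditions. It was in neither ZnCl2 library, and with equally long lists it was in no library. Its promoter, printed above, had a GC content of 36% and an observed to expected CpG ratio of 0.938, the second highest of the 53.

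No member start was gained or lost between conditions in the full lists, a gain being a start open in both libraries of the first condition and neither of the second. Over all coding genes, TPA against Control gained 0.25% and lost 0.609%, ZnCl2 against Control gained 0.11% and lost 0.125%, and TPA against ZnCl2 gained 0.714% and lost 0.859%. With equally long lists, PCDHAC2 was lost in TPA against Control and against ZnCl2. At that setting 3.48% of coding starts were lost and 0.649% gained in TPA against Control, and 4.99% lost and 1.04% gained in TPA against ZnCl2. ZnCl2 against Control gained and lost no member, with 0.923% of coding starts gained and 0.624% lost. The mean number of open member starts was 3.5 ± 0.707 in Control, 3.5 ± 0.707 in TPA and 3 ± 0 in ZnCl2 (SD, n = 2, exact permutation p = 1 for each pair). The share of members open minus the share of coding genes open was -45.4 ± 6.43 percentage points in Control, -44.9 ± 0.24 in TPA and -44 ± 8.58 in ZnCl2. The differences from Control, 0.507 points for TPA and 1.43 points for ZnCl2, were smaller than the spread of the Control libraries (exact permutation p = 1 each), and without Control replicate 2 they were negative, at -4.04 for TPA and at -3.12 for ZnCl2.

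Regions away from the member starts were described next. The windows from the first to the last gene of each cluster, with 50 kb on each side, were chr5:140736136-141062347 for alpha, chr5:141001374-141299365 for beta and chr5:141280514-141562977 for gamma, and joined into 1 window of 827 kb. It held 12 and 12 regions in Control, 13 and 14 in TPA, and 13 and 9 in ZnCl2. Between 2.2% and 4.37% of the window was open, against 1.16% to 3.05% of the genome, and in each library the window exceeded the genome. Regions in the window had a median width of 1465 and 2545 bp in Control, 1680 and 1625 bp in TPA, and 2050 and 1930 bp in ZnCl2. Open sequence amounted to 18.2 and 36.2 kb in Control, 24.2 and 22.3 kb in TPA, and 25.2 and 19 kb in ZnCl2. The means were 27.2 ± 12.7, 23.2 ± 1.34 and 22.1 ± 4.37 kb, and the treatments overlapped with Control (exact permutation p = 1 each). Control replicate 2 held the most and Control replicate 1 the least. Without Control replicate 2 the difference from Control turned from -3.95 to 5.03 kb for TPA and from -5.06 to 3.92 kb for ZnCl2.

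Merged across libraries, the window held 11 regions, of which 4 covered a member start, 1 covered the start of another coding gene and 6 covered none. Of the 11, 7 were present in all 6 libraries (63.6%, against 32% of 49527 merged regions of the genome) and 0 in a single library (against 16.7%). Long stretches held no region in any library. The longest, of 277 kb, contained all 16 beta starts, and the next, of 153 kb, all 19 gamma A and B starts. A stretch of 139 kb from the edge of the window held PCDHA1 to PCDHA11, and one of 49.4 kb held PCDHA13. The start of TAF7, a subunit of the general transcription factor TFIID, lies between the beta and gamma clusters and was open in 5 libraries, at percentiles of 70.6 in Control replicate 2, 21.2 and 47 in TPA, and 43.5 and 21.6 in ZnCl2. SLC25A2 and ENSG00000279983, the other coding genes of the window, were open in none.

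**Figure D4:**
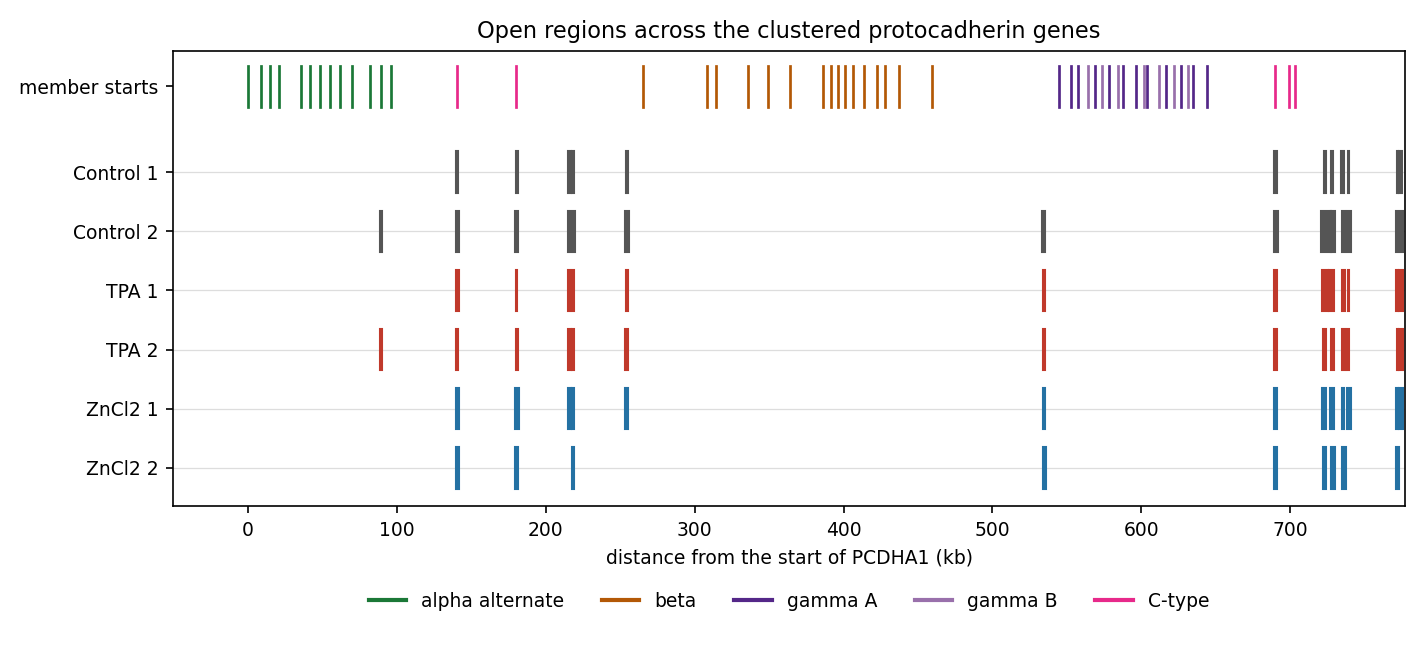
Map of the 827 kb window with distance from the start of PCDHA1 in kb on the x axis. The top row marks the 53 member starts by class, and each row below shows the open regions of 1 library as boxes to scale. Boxes are found at PCDHAC1, PCDHAC2 and PCDHGC3 in all 6 libraries, and the stretches under the beta and the gamma A and B starts are empty apart from the TAF7 region between them.

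A region at chr5:141001113-141005681 lay within an intron shared by all 15 alpha genes, between the PCDHAC2 start and PCDHB1, and covered no exon. The span held 2 separate calls in Control replicate 1, both TPA libraries and ZnCl2 replicate 1, and 1 call in each other library. In ZnCl2 replicate 2 that call was chr5:141003712-141005381, the latter part of the span. The percentile given is that of the highest-scoring call. It was 91.3 and 98.1 in Control, 99.2 and 99.3 in TPA, and 94.4 and 91.8 in ZnCl2, among the highest of every list. Both TPA values exceeded all others (exact permutation p = 0.333 against either condition). Among 15852 merged regions present in all libraries, 22.9% were higher in TPA than in Control without overlap, and 37.5% higher in TPA than in ZnCl2.

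A region at chr5:141039362-141042291 lay beyond the 3′ end of the alpha cluster and before PCDHB1, over the start of the non-coding gene ENSG00000288892. Its percentile was 27.7 and 76.6 in Control, 75.1 and 77.4 in TPA and 52.5 in ZnCl2 replicate 1, and it was in no region of ZnCl2 replicate 2, the shortest list. It held 2 matches of the CTCF core, both on the minus strand, opposite to the strand of the member genes. They are printed 5′ to 3′ on that strand (hg38) with the core in capitals, as they are the only such matches in open regions between the alpha and beta starts.
site at chr5:141040349-141040388, minus strand: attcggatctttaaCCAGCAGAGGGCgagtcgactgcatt
site at chr5:141041358-141041397, minus strand: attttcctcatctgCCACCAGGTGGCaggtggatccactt
Within 1000 bases around its centre, 3 of the 11 merged regions of the window held the core (27.3%), as did 8.57% of all merged regions. The others were the merged region at the gamma constant exons and 1 in DIAPH1. Matches at the gamma constant exons lay inside a call only in Control replicate 2 and TPA replicate 1. In the other libraries they fell in the uncalled gap between 2 calls. Enhancers bound by CTCF are known downstream of the alpha cluster and of the gamma cluster, but whether these regions act as such was not measured.

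The 3′ side of the gamma cluster held the most open sequence. A merged region at chr5:141506982-141516181 covered constant exons of the 22 gamma genes and the end of DIAPH1, a formin that nucleates actin filaments and is read from the opposite strand. It held 2 calls in each library. Outside Control replicate 2 and TPA replicate 1, the first call ended at chr5:141510151 or before. The second call there began at chr5:141513003 or after, past the last base of the gamma genes at chr5:141512977. The percentile of the merged region is that of the higher-scoring call. This was 87 and 97.7 in Control, 96.5 and 98.3 in TPA, and 90.8 and 81.1 in ZnCl2. Its open length was 2830 and 9190 bp in Control, 7500 and 3770 bp in TPA, and 5170 and 4580 bp in ZnCl2. The TPA percentiles exceeded those of ZnCl2 but overlapped with Control (exact permutation p = 0.333 and p = 0.667). A region in an intron of DIAPH1, chr5:141520372-141523351, had percentiles of 87.7 and 93.9 in Control, 97.8 and 97.5 in TPA, and 84.3 and 74 in ZnCl2. TPA was higher and ZnCl2 lower than Control without overlap (exact permutation p = 0.333 each), as 22.9% and 17.6% of merged regions were, while 2.47% were higher in ZnCl2 than in Control. Its neighbour at chr5:141523872-141526582 was absent from ZnCl2 replicate 2 and had percentiles of 60.8 and 81.1 in Control, 50.4 and 50.3 in TPA, and 75.1 in ZnCl2 replicate 1. The last merged region of the window, chr5:141557262-141561691, covered the start of DIAPH1-AS1. It held 2 calls in Control replicate 1, both TPA libraries and ZnCl2 replicate 1, and 1 call in each other library. In ZnCl2 replicate 2 that call was chr5:141557332-141559261 only. The percentile of the highest-scoring call ranged from 87.9 to 96.7 with overlap between conditions.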

How the data were processed

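ATAC-seq was performed on 6 libraries of MCF10A cells. The authors trimmed paired reads of 75 bases with BBDuk, checked them with FastQC 0.11.8, aligned them to hg38 with HISAT2 2.1.0, indexed them with SAMtools 1.8 and called open regions in each library with HMMRATAC; its version and kind of score are not given in the sources used here. The deposited values are 1 region list per library with a whole-number score per region, none under 30. Regions on other contigs were left out, and coordinates were written from 1. Starts came from GENCODE release 44, and a region covered a start with at least 1 bp. Sequence was read with pysam 0.24.0 from hg38, indexed with samtools 1.23.1. Python 3.11.15, numpy 2.4.6, pandas 2.3.3 and matplotlib 3.10.9 were used. Means of 2 libraries were compared by an exact two-sided permutation test, checked on simulated data against scipy 1.17.1, whose smallest p is 0.333. Alternatives were lists of equal length (18887 regions), the upper 50% by score, canonical starts, promoters of 1000 bp, no flanks, a replicate block and leaving out each library. Members and lists were chosen with earlier results of these data known. Text names members gained or lost, C-type members, up to 6 starts open throughout by mean percentile, the first and last gene of each cluster, neighbours, and 5 regions away from starts present in most libraries. PCDHA12, the members with repeated pieces and those at the extremes of a range were named after their values were seen. The region in DIAPH1 absent from 1 library was likewise added.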

Additional observations from a re-analysis of the deposited data

How the results depend on the processing

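Of 106 alternatives over 12 results, 77 kept their direction, though not always their size, 16 moved and 13 reversed; canonical starts, promoter windows and windows without flanks changed no direction. The number of open member starts, TPA minus Control, was -1 with equal lists and -0.5 with the upper 50%, and ranged from -0.5 to 0.5 without single libraries. ZnCl2 minus Control was 0 with equal lists, 0.5 with the upper 50% and -1 to 0 without single libraries. TPA minus ZnCl2 was -1 with either shorter list and 0 to 1 without single libraries. The excess over coding starts ranged from -4.04 to 5.05 points for TPA and from -4.64 to 7.5 for ZnCl2 without single libraries, and was -0.993 for ZnCl2 with equal lists. Without Control replicate 2, open sequence was 5.03 kb higher in TPA and 3.92 kb higher in ZnCl2 than in Control, and without the others the differences reached -12.9 and -14 kb. The member median percentile, ZnCl2 minus Control, was -0.942 with either shorter list and -3.42 to 4.49 without single libraries. For TPA minus Control it stayed negative, at -6.59 with either shorter list and from -21.9 to -4.25 without single libraries. Both shorter lists kept the percentiles of the full lists, so for this measure they changed only which members were counted. PCDHAC2 was the 1 member lost in TPA with equal lists, against Control and against ZnCl2, and 1 member was also lost against ZnCl2 with the upper 50%. Gained and lost members ranged from 0 to 1 without single libraries for ZnCl2 against Control (1 lost without Control replicate 1) and for TPA against ZnCl2 (1 gained without TPA replicate 1). The cause was not tested. Deviations of same-numbered libraries were correlated over 20033 coding starts. The correlation was 0.108 for TPA and Control, -0.387 for ZnCl2 and Control and -0.0709 for TPA and ZnCl2. With 2 libraries per condition and lists of unequal length, these values cannot show whether same-numbered libraries were prepared together. With the replicate block, gained and lost members averaged 0.5 for ZnCl2 against Control and for TPA against ZnCl2, against 0 without it. The member median percentile for TPA minus Control was -13.1 (exact permutation p = 0.5, the smallest it can give). With 2 libraries per condition no test here can give a p under 0.333, and unknown depth leaves uncalled starts undecided.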
